A study of Mus musculus with 14 samples.

Results

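The DNA replication machinery was followed in mouse germline stem cells and in the pluripotent lines made from them. The members are 39 genes, chosen by name: the genes that recognise and license origins, the replicative helicase, the polymerases and primase, the sliding clamp and its loader, the genes that bind single strands and join lagging-strand fragments, and both parts of ribonucleotide reductase. Of these, 36 have a probe on the array, among 16593 genes with a named probe, and together they hold 56 of its 25697 probes; Gins1, Gins2 and Rfc3 have none. A probe entered the tests if at least 2 of the 14 arrays detected it (detection p below 0.01). That left 33 members, of 8950 genes tested, with 48 of the 13034 tested probes. Orc1, the origin recognition subunit with ATPase activity, Pola1, the catalytic subunit of polymerase alpha, and Pole2, a subunit of polymerase epsilon, were detected on 0 of 14 arrays and were not tested, which says nothing about whether the cells make them. A gene with several tested probes is described at the one with the highest mean level.

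The series asks whether adult testis can serve as a source of an individual's own pluripotent stem cells, and compares 5 groups on Illumina Mouse-8 v2 expression arrays. The gPS groups are clonal pluripotent lines that arose from germline stem cells, 3 lines from OG2 mice (an Oct4-GFP transgene on C57BL6) and 3 lines from OG2-ROSA mice (Oct4-GFP crossed to a Lacz transgene, C57BL6 x 129sv). The GSC groups are germline stem cells, labelled unipotent, again 3 OG2 lines and 3 OG2-ROSA lines. The ESC group is a C57BL6 embryonic stem cell line on 2 arrays, which may be technical repeats, because the series says that RNA was hybridised in biological or technical duplicate without saying which. The OG2 and OG2-ROSA mice differ in strain, in the Lacz transgene and in a replicate mark in the titles, found on OG2 and ESC samples, and these cannot be told apart. The labels do not say which GSC line gave which gPS line, and p-values here measure the spread between these lines and arrays. The series text counts 13 samples and the sample list holds 14, all used here.

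Before DNA is copied, the origin recognition complex, Cdc6 and Cdt1 load the ring of Mcm2 to Mcm7 onto DNA, a step called licensing. In S phase Cdc45 and the GINS complex join that ring to form the active CMG helicase, primase and polymerase alpha start each strand, and polymerases delta and epsilon extend it with Pcna as their sliding clamp, loaded by replication factor C. Many of these genes are known targets of E2F factors and are transcribed as cells enter S phase, and embryonic stem cells are known for short gap phases and a large share of cells in S phase. In bulk RNA, fewer cells of a type or phase and less RNA per cell cannot be told apart.

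RefSeq promoter windows on GRCm38.p6, from 250 bases before to 50 bases after the annotated start, were at hand for 32 of the 39 members. They were searched on both strands for 3 spellings of the E2F site, TTTCGCGC, TTTGGCGC and TTTCCCGC, and for CCAAT, the NF-Y motif. An E2F spelling was found in 12 of the 32 members (37.5%), against 2.12% of the 27025 genes in the table, and CCAAT in 22 of 32 members (68.8%), against 41.1% of all genes. The windows printed here belong to Rrm2 and Rpa2, the members furthest higher and lower in gPS, to Cdc6, a licensing factor with 1 E2F spelling, and to Mcm3 and Mcm6, helicase subunits on either side of the test. They lie at chr12:24708004-24708303 (plus strand), chr4:132768110-132768409 (plus), chr11:98907901-98908200 (plus), chr1:20820263-20820562 (minus) and chr1:128359656-128359955 (minus), and each is written 5′ to 3′ along its gene with every match in capitals.
Rrm2: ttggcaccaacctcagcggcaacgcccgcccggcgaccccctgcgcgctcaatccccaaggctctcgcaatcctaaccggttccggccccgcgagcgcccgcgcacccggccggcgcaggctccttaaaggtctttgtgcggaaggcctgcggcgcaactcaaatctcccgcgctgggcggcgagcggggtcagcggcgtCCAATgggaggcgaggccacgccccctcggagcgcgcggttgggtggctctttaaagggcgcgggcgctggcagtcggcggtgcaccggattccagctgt
Rpa2: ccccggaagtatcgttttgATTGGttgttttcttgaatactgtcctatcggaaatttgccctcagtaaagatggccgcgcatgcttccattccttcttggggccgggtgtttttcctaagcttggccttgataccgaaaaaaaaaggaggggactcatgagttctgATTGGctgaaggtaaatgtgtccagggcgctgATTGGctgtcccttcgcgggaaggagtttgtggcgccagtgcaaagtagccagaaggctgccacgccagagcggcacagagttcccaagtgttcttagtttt
Cdc6: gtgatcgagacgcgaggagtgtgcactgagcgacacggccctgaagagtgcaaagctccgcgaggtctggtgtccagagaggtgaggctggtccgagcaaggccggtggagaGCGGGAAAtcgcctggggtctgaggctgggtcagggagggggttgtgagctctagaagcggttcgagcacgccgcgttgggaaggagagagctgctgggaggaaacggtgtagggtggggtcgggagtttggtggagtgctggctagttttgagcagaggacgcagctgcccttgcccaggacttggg
Mcm3: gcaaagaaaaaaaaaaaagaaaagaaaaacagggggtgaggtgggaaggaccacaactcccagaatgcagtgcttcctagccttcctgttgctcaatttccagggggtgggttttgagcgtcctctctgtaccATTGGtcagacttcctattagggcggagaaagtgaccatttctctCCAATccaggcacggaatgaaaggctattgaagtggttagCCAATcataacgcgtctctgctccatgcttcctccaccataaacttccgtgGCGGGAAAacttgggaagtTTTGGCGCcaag
Mcm6: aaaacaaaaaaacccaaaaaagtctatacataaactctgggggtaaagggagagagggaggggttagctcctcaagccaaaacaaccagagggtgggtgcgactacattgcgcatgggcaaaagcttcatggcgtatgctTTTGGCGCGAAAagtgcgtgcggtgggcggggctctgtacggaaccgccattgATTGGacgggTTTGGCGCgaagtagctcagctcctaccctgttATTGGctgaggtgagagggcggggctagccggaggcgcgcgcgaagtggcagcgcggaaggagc
The capitals mark 1 CCAAT in Rrm2, 3 in Rpa2, 3 in Mcm3 and 2 in Mcm6, and 1 E2F spelling in Cdc6, 2 in Mcm3 and 3 in Mcm6, where TTTGGCGC overlaps TTTCGCGC on the other strand and the capitals run together. A match is a string of letters, and no binding was measured here.

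The arrays differed in brightness and in the levels of marker genes. Mean intensity was 308 on gPS OG2-ROSA line 2 and 379 on gPS OG2-ROSA line 1, against 513 to 640 on the other 12 arrays. By cell type it was 308.02 to 579.93 in gPS, 613.75 to 639.53 in GSC and 584.42 to 621.98 in ESC. Detected probes numbered 9638 to 10295 in gPS, 10950 to 11610 in GSC and 9649 to 10121 in ESC. Before scaling, every gPS array was thus dimmer than every GSC array and detected fewer probes. Among the 6 gPS arrays, gPS OG2-ROSA line 2 was the lowest in 10 and the highest in 11 of the 33 members. Several results that rest on it are therefore also given without it. Other arrays also lay often at the ends, with gPS OG2 line 1 the lowest gPS array in 13 members. Among the 6 GSC arrays, OG2 line 1 was the lowest in 12 and OG2-ROSA line 2 the highest in 17. All 12 pluripotency markers were higher in gPS, with a median log2 change of 4.0, and 10 of 12 germline markers were lower, which matches the labels; Etv5, listed among the germline markers, was higher in gPS. A list of 18 fibroblast genes, 13 of them tested, also moved, with 10 lower and 1 higher in gPS than in GSC. Its summed intensity was 3294.8 to 13730 in gPS, 4198.7 to 36486 in GSC and 4634.7 to 4733.4 in ESC, so the GSC arrays reached the highest sums. The lowest GSC sum was on OG2-ROSA line 2, and the next lowest was 11508. Of 11 testis somatic markers, 2 were tested, with Wt1 lower and Cyp11a1 higher in gPS.

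The first comparison, gPS against GSC over both backgrounds, asks how the replication genes differ after conversion to pluripotency. Here 16 of the 33 members rose in gPS, 5 fell and 12 did not pass the test (limma, Benjamini-Hochberg adjusted p under 0.05 over all tested probes). The largest change by far was in Rrm2, the regulated small subunit of ribonucleotide reductase, 16.2-fold higher in gPS, and most others were under 2-fold, with 16 of the 21 called members below that size. Origin and licensing genes rose in 5 of 6 tested, while the polymerase, clamp loader and single-strand binding groups each held members that rose and members that fell. The share of members called, 63.6%, is about that of all tested probes, 63.9%, of which 30.4% rose and 33.5% fell. The median log2 change was 0.31 over the member genes and -0.04 over all probes. Over member probes, 24 rose and 7 fell. Without both dim gPS OG2-ROSA arrays the counts were 20 and 7. With the mean of the fibroblast list as a covariate they were 6 and 6, and the shares of all probes called also fell, to 19% higher and 21.8% lower. Of the 16 raised genes, Orc5, Pola2, Rfc5 and Rrm2 kept their call under it, and all 5 lowered genes kept theirs. The 12 that lost it still had positive log2 changes, of 0.26 in Mcm5 (reported 0.50) to 0.66 in Pcna (reported 1.01), with larger standard errors. Mcm7 stood at 0.62 (reported 0.93) and Pold2 at 0.60 (reported 0.88). These changes were thus smaller as well as less precise, while that of Orc2 was larger than reported. The part of the fibroblast genes in these changes was not tested further.

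**Figure D1:**
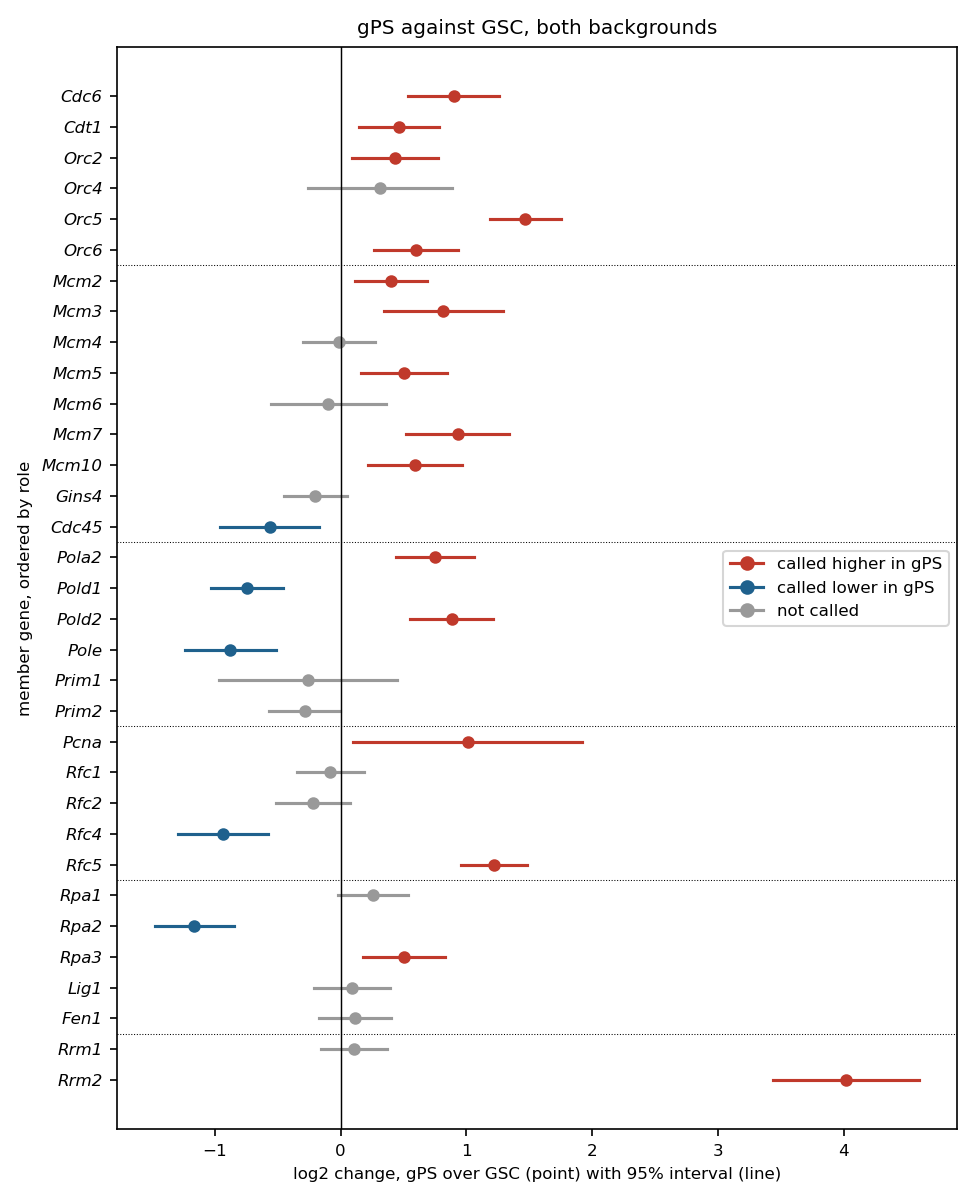
Log2 change of each tested member in gPS over GSC (points, x axis) with its 95% interval (lines), by role down the y axis. Red points were called higher in gPS, blue points were called lower and grey points did not pass the test. Rrm2 stands at 4.02, Rpa2 is the lowest at -1.16, and most called members lie within 1 log2 unit of 0.

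All 6 gPS arrays lay outside the range of the 6 GSC arrays in 10 members, above it in Cdc6, Orc5, Mcm7, Pold2, Rfc5 and Rrm2 and below it in Pold1, Pole, Rfc4 and Rpa2. The other 23 members overlapped. Over all tested probes 38.5% did not overlap (18% above, 20.4% below), so the members separated no more often than the array as a whole. Values below are normalised log2 intensities, given for lines 1, 2 and 3 of a group in that order, and levels of different genes are not compared.

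**Figure D2:**
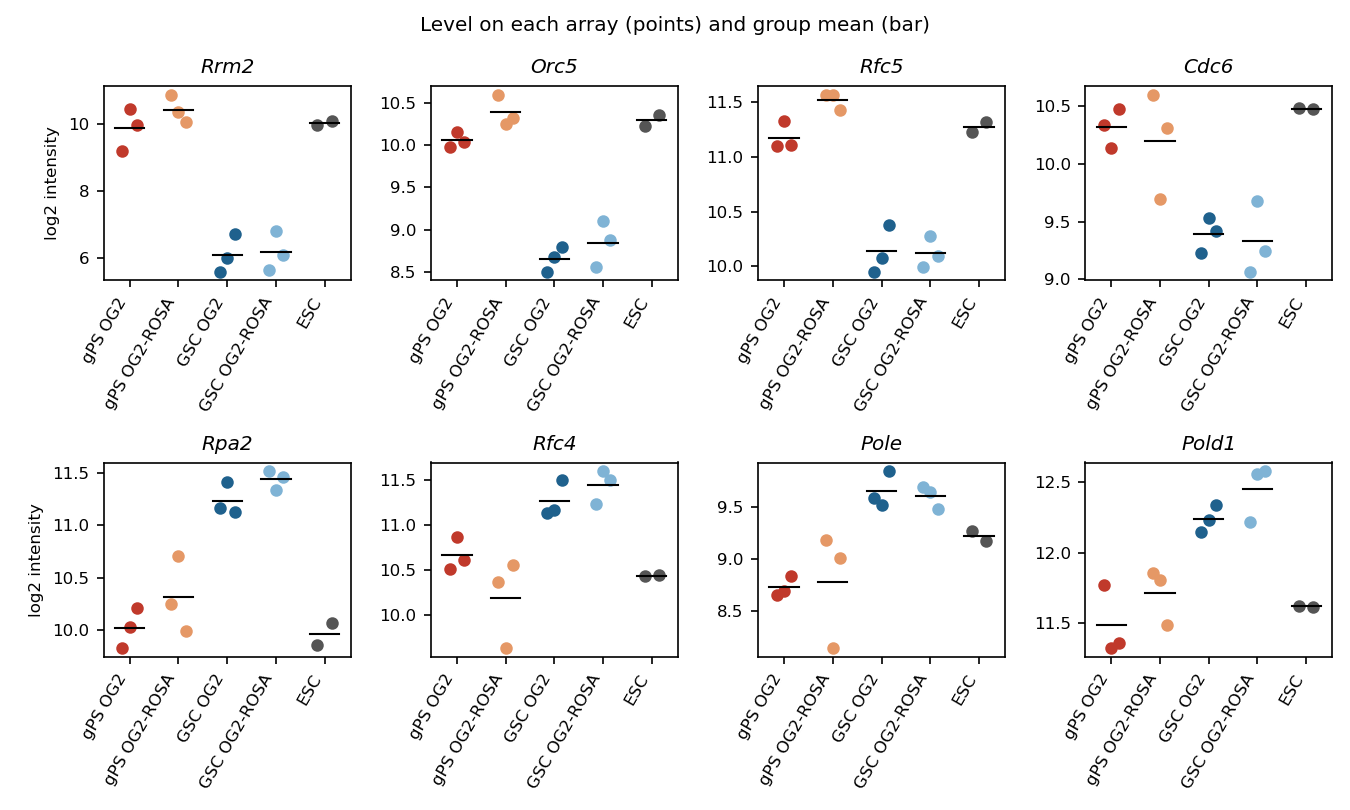
Normalised log2 intensity (y axis) of 8 members on each array (points) with group means (bars), for gPS, GSC and ESC. In Rrm2, Orc5, Rfc5 and Cdc6 the gPS points lie above the GSC points, and in Rpa2, Rfc4, Pole and Pold1 below them; the ESC points lie near the gPS points in most of these panels.

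Ribonucleotide reductase makes deoxynucleotides from ribonucleotides. Its small subunit gene Rrm2 read 9.20, 10.45 and 9.98 in gPS OG2 and 10.87, 10.35 and 10.07 in gPS OG2-ROSA, against 5.59, 5.98 and 6.72 in GSC OG2 and 5.64, 6.81 and 6.07 in GSC OG2-ROSA. Every gPS array exceeded every GSC array by more than 2 log2 units, and the ESC arrays, at 9.96 and 10.07, lay within the gPS range. The log2 change was 4.02 (SE 0.27, adjusted p = 3.62e-08) and 3.57 at its other probe. Before any correction, intensity at the Rrm2 probe was 598.52 to 1386.7 in gPS and 170.94 to 257.75 in GSC, where 1 of the 6 arrays did not detect it. The GSC values are near background, so the fold depends on how background is removed, and with none removed the log2 change was 2.82. Rrm1, the large subunit that carries the active site, overlapped between the groups, with a log2 change of 0.10 that did not pass the test.

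Origin recognition and licensing genes rose in gPS in 5 of 6 tested members, with a median log2 change of 0.53, where 30.4% of all probes rose. Within OG2 and within OG2-ROSA, 3 of the 6 were called higher. Orc5, a subunit of the origin recognition complex, read 9.98, 10.15 and 10.03 in gPS OG2 and 10.59, 10.25 and 10.32 in gPS OG2-ROSA, against 8.51, 8.68 and 8.79 in GSC OG2 and 8.56, 9.11 and 8.88 in GSC OG2-ROSA. It was 2.77-fold higher in gPS, with tight groups that do not meet (log2 change 1.47, SE 0.13, adjusted p = 5.17e-07). Its second probe gave the same value, 1.47. Cdc6, the loader that brings the Mcm ring to origins, read 10.34, 10.14 and 10.48 in gPS OG2 and 10.60, 9.69 and 10.31 in gPS OG2-ROSA, against 9.23, 9.53 and 9.42 in GSC OG2 and 9.07, 9.68 and 9.24 in GSC OG2-ROSA. The lowest gPS array for Cdc6, OG2-ROSA line 2, was only just above the highest GSC array, OG2-ROSA line 2, and the change was 1.86-fold (log2 0.90, SE 0.17, adjusted p = 4.07e-04). Without that gPS array the log2 change was 1.03.

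Cdt1, Cdc6's partner in licensing, read 12.35, 12.78 and 12.62 in gPS OG2 and 12.74, 12.16 and 12.72 in gPS OG2-ROSA, against 12.16, 12.09 and 11.99 in GSC OG2 and 11.82, 12.22 and 12.29 in GSC OG2-ROSA. The ranges overlap through gPS OG2-ROSA line 2, and the log2 change was 0.47 (SE 0.15, adjusted p = 0.0138). Orc6, the subunit that helps load the ring, rose by 0.60 (adjusted p = 0.00421), with a gPS range of 11.54 to 12.27 and a GSC range of 11.06 to 11.59. Orc2, a core subunit, was dim, detected on 7 of 14 arrays, and its log2 change of 0.43 (adjusted p = 0.0292) lost the call when any of 6 arrays was left out, gPS OG2 line 1 or 3, gPS OG2-ROSA line 1, GSC OG2 line 1 or GSC OG2-ROSA line 2 or 3 (adjusted p 0.0539 to 0.0795, log2 change 0.34 to 0.55 over all arrays left out). Orc4, another core subunit, read 5.25 to 6.97 in gPS and 5.47 to 6.32 in GSC and did not pass the test. Orc1 read 4.52 to 4.72 in gPS and 4.43 to 4.88 in GSC, at background in both. With the fibroblast mean as covariate the log2 changes were 0.61 in Cdc6, 0.39 in Cdt1, 0.58 in Orc2 and 0.49 in Orc6, with wider errors, and none passed (adjusted p 0.0834 to 0.234).

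The CMG helicase group holds the Mcm ring, Cdc45, the GINS complex and Mcm10, which helps activate the helicase. Of 9 members tested, 5 were higher in gPS, 1 was lower and the other 3 were not called, beside 30.4% higher and 33.5% lower over all probes. Mcm7, a ring subunit, read 9.75, 9.79 and 9.96 in gPS OG2 and 10.26, 10.97 and 9.72 in gPS OG2-ROSA, against 9.15, 8.76 and 9.20 in GSC OG2 and 9.07, 9.52 and 9.17 in GSC OG2-ROSA. The gPS arrays lay above all GSC arrays, with gPS OG2-ROSA line 2 the highest, and the change was 1.91-fold (log2 0.93, SE 0.19, adjusted p = 7.80e-04). Without that array the log2 change was 0.77. Mcm2 read 11.90, 12.01 and 11.80 in gPS OG2 and 11.74, 11.91 and 11.58 in gPS OG2-ROSA, against 11.15, 11.30 and 11.74 in GSC OG2 and 11.48, 11.30 and 11.57 in GSC OG2-ROSA. Those ranges overlap, since GSC OG2 line 3 reached the level of gPS OG2-ROSA line 1 (log2 change 0.40, SE 0.13, adjusted p = 0.0175).

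Mcm3, Mcm5 and Mcm10 rose by 0.82, 0.50 and 0.59 on the log2 scale (adjusted p 0.00498, 0.0137 and 0.0088), each with overlapping arrays, and the second Mcm10 probe rose by 0.99. The highest gPS array for Mcm3, at 11.08, and for Mcm10, at 12.40, was OG2-ROSA line 2. Without both dim arrays the calls of Mcm2, Mcm3 and Mcm10 were lost, as was that of Orc2 (adjusted p 0.0604 to 0.0935). The log2 change was then 0.45 in Mcm3 (reported 0.82), 0.38 in Mcm10 (reported 0.59), 0.32 in Mcm2 (reported 0.40) and 0.45 in Orc2 (reported 0.43); leaving out either alone kept the calls of Mcm2, Mcm3 and Mcm10. Mcm4 and Mcm6, ring subunits with several probes, did not pass at the brightest probe, with log2 changes of -0.01 and -0.10. Their other probes did not all match this: both other Mcm4 probes were called higher, at 0.99, as was 1 of 3 other Mcm6 probes, at 0.37. Mcm4 at its brightest probe changes sign and is called higher under median scaling, at 0.51. Gins4, a GINS subunit, gave -0.20, and 0.11 under median scaling, and did not pass.

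Cdc45 moved the other way from the ring subunits that rose. It read 9.06, 8.96 and 9.15 in gPS OG2 and 9.57, 9.39 and 9.06 in gPS OG2-ROSA, against 9.53, 9.90 and 9.97 in GSC OG2 and 9.15, 10.28 and 9.74 in GSC OG2-ROSA. GSC OG2-ROSA line 1 and GSC OG2 line 1 lay within the gPS range, and the log2 change was -0.56 (SE 0.18, adjusted p = 0.0152). The call held under every alternative tried, including the fibroblast covariate.

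Polymerases and primase held 2 members higher, 2 lower and 2 not passing in gPS. Over all probes 30.4% were higher and 33.5% lower, so this mix is near that of the whole array. The catalytic subunit of polymerase delta, Pold1, read 11.77, 11.33 and 11.36 in gPS OG2 and 11.85, 11.80 and 11.49 in gPS OG2-ROSA, against 12.15, 12.23 and 12.34 in GSC OG2 and 12.22, 12.55 and 12.57 in GSC OG2-ROSA. Its accessory subunit Pold2 read 10.32, 9.87 and 10.05 in gPS OG2 and 10.27, 10.75 and 10.26 in gPS OG2-ROSA, against 9.21, 9.27 and 9.47 in GSC OG2 and 9.09, 9.74 and 9.46 in GSC OG2-ROSA. Both pairs of groups were apart on all 12 arrays, in opposite directions. Pold1 was 1.67-fold lower (log2 -0.74, SE 0.13, adjusted p = 2.69e-04) and Pold2 1.84-fold higher in gPS (log2 0.88, SE 0.15, adjusted p = 2.03e-04).

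Pole, the catalytic subunit of polymerase epsilon on the leading strand, read 8.65, 8.69 and 8.83 in gPS OG2 and 9.18, 8.14 and 9.01 in gPS OG2-ROSA, against 9.59, 9.52 and 9.84 in GSC OG2 and 9.69, 9.64 and 9.48 in GSC OG2-ROSA. It was 1.84-fold lower in gPS with no overlap (log2 -0.88, SE 0.17, adjusted p = 4.71e-04). Without gPS OG2-ROSA line 2, its lowest gPS array, the log2 change was -0.72. Pola2, the regulatory subunit of polymerase alpha, rose by 0.75 (SE 0.14, adjusted p = 4.77e-04), with arrays meeting at gPS OG2 line 1 (8.83) and GSC OG2-ROSA line 2 (8.85). Prim1 and Prim2, the primase subunits, did not pass, at -0.26 and -0.28; Prim2 was called lower when GSC OG2 line 1 was left out, at -0.35, under median scaling, at -0.35, under median scaling over all probes, at -0.63, and with no background correction, at -0.23, and Prim1 gave 0.11 without gPS OG2-ROSA line 2, where it read 4.94 and was not detected. Pola1 read 4.43 to 4.67 in gPS and 4.44 to 4.57 in GSC, at background.

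The clamp loader also held members that moved in opposite directions. Rfc5 read 11.10, 11.32 and 11.11 in gPS OG2 and 11.56, 11.57 and 11.43 in gPS OG2-ROSA, against 9.95, 10.07 and 10.38 in GSC OG2 and 9.99, 10.27 and 10.10 in GSC OG2-ROSA. Rfc4 read 10.51, 10.87 and 10.61 in gPS OG2 and 10.36, 9.63 and 10.56 in gPS OG2-ROSA, against 11.13, 11.17 and 11.50 in GSC OG2 and 11.23, 11.60 and 11.51 in GSC OG2-ROSA. These are subunits of a single loader, and neither pair of groups overlaps: Rfc5 was 2.33-fold higher (log2 1.22, SE 0.12, adjusted p = 1.52e-06) and Rfc4 1.91-fold lower in gPS (log2 -0.93, SE 0.17, adjusted p = 2.68e-04), with -0.97 at its other probe. Without gPS OG2-ROSA line 2, the lowest gPS array for Rfc4, the log2 change of Rfc4 was -0.80. Rfc1, the largest subunit, and Rfc2 did not pass, at -0.08 and -0.22.

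Pcna, the clamp, read 9.64, 10.30 and 9.90 in gPS OG2 and 10.16, 7.10 and 10.11 in gPS OG2-ROSA, against 8.40, 8.62 and 8.71 in GSC OG2 and 8.07, 8.77 and 8.58 in GSC OG2-ROSA. Apart from gPS OG2-ROSA line 2, which lay below every GSC array, the gPS arrays lay above all GSC arrays. With all arrays the log2 change was 1.01 (SE 0.42, adjusted p = 0.0499), at the edge of the threshold, and the call was lost when any of the other 13 arrays was left out (adjusted p 0.057 to 0.126). Without gPS OG2-ROSA line 2 the change was 1.52 (adjusted p = 4.8e-06).

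Among the genes that bind single strands and join lagging-strand fragments, 1 of 5 rose, 1 fell and 3 did not pass. Over all probes 30.4% rose and 33.5% fell. Rpa2, the middle subunit of the single-strand binding protein RPA, read 9.83, 10.03 and 10.21 in gPS OG2 and 10.25, 10.71 and 9.99 in gPS OG2-ROSA, against 11.16, 11.41 and 11.13 in GSC OG2 and 11.51, 11.33 and 11.46 in GSC OG2-ROSA. It was 2.24-fold lower in gPS with no overlap (log2 -1.16, SE 0.14, adjusted p = 1.08e-05), and its other probe gave -1.53. The smallest RPA subunit, Rpa3, rose by 0.50 (SE 0.15, adjusted p = 0.01), with overlapping ranges of 10.63 to 11.63 in gPS and 10.23 to 10.75 in GSC. Rpa1, the largest RPA subunit, gave 0.26 and did not pass; it was called higher under median scaling, at 0.76, under median scaling over all probes, at 0.48, and with no background correction, at 0.26.

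Lig1, the ligase that seals lagging-strand fragments, read 11.41, 11.27 and 10.96 in gPS OG2 and 11.34, 10.71 and 11.05 in gPS OG2-ROSA, against 10.97, 10.88 and 11.17 in GSC OG2 and 11.02, 11.16 and 10.98 in GSC OG2-ROSA. Fen1, the flap nuclease that trims them, ran from 11.02 over a median of 11.36 to 11.61 on the 6 gPS arrays, and from 10.91 over a median of 11.32 to 11.47 on the 6 GSC arrays. Both overlapped and did not pass, with log2 changes of 0.09 and 0.11, although 2 of 3 other Lig1 probes were called higher, at 0.33 and 0.68.

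**Figure D3:**
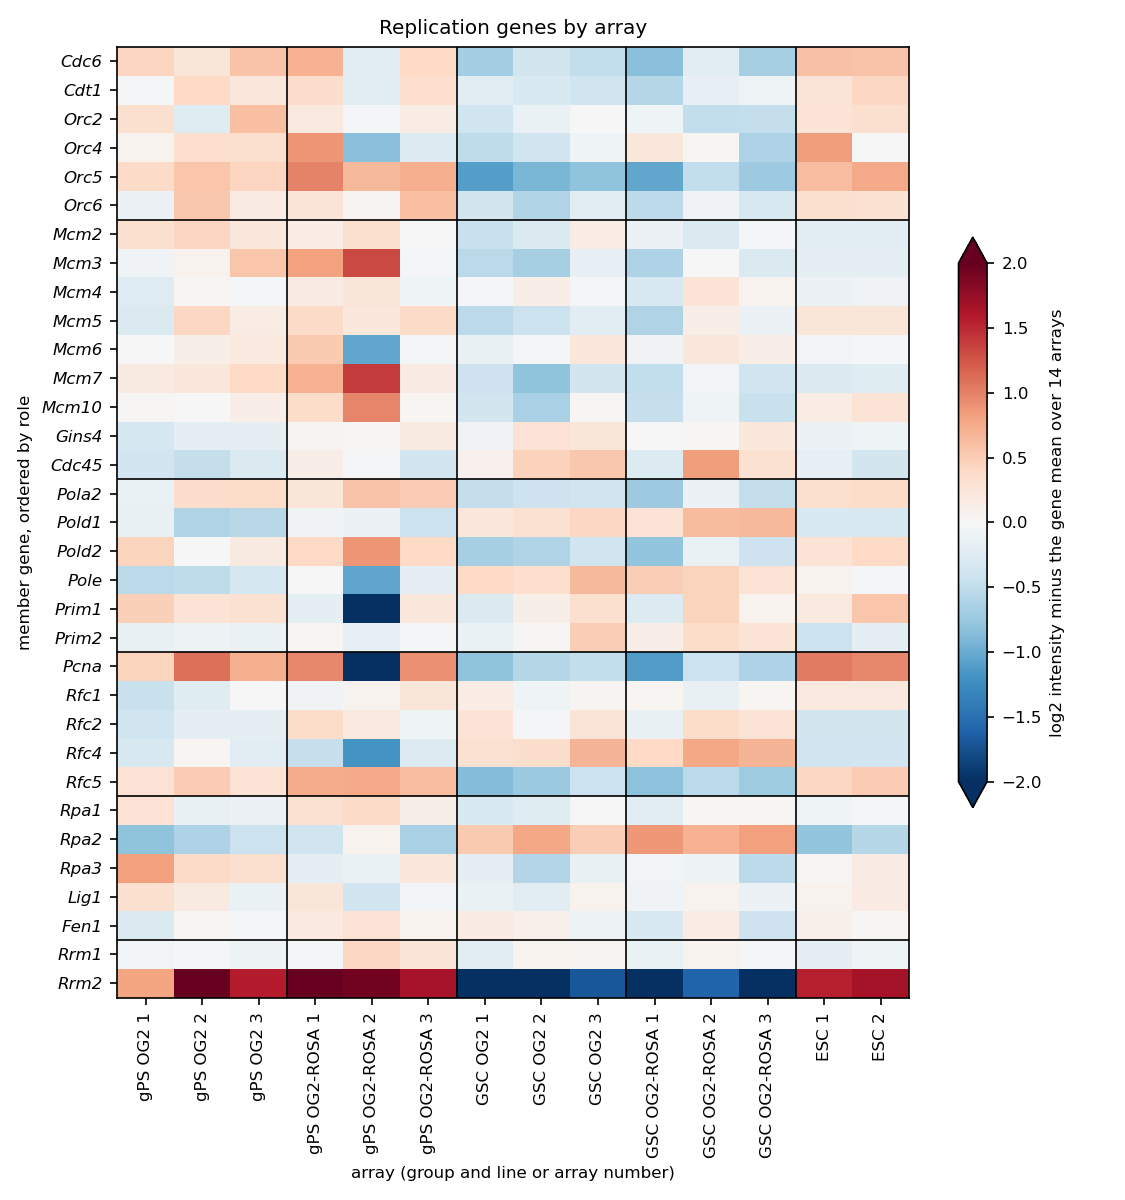
Log2 intensity of each tested member (y axis, by role) on each of the 14 arrays (x axis), as the difference from that gene's mean, with the colour scale held at 2 in either direction. Rrm2 goes past the scale in GSC, and Prim1 and Pcna stand out as low on gPS OG2-ROSA line 2.

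The same comparison was made within each background. In OG2-ROSA 10 members rose and 4 fell in gPS, where 23.9% and 26.2% of all probes did, and in OG2 10 rose and 5 fell, where 23.2% and 26.2% did. The shares of members called, 42.4% and 45.5%, stand beside 50.1% and 49.4% of all probes. The direction was shared by 25 of the 33 members. In both backgrounds 8 were called higher and 4 lower (Pold1, Pole, Rfc4 and Rpa2). Another 2 were called in OG2-ROSA only, 3 in OG2 only and 0 in opposite directions. These shared counts were not made over all probes, so they show nothing particular to the members. Rrm2 changed by 4.25 in OG2-ROSA and 3.78 in OG2, Orc5 by 1.54 and 1.39, Rfc5 by 1.40 and 1.04, and Rpa2 by -1.12 and -1.21 (adjusted p from 1.36e-06 to 5.12e-04 over these 8 values).

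Mcm3 and Mcm10 passed in OG2-ROSA, at 1.00 and 0.79, and not in OG2, at 0.64 and 0.39; Mcm2, Cdc45 and Rpa3 passed in OG2, at 0.51, -0.74 and 0.81, and not in OG2-ROSA, at 0.30, -0.38 and 0.20. Without gPS OG2-ROSA line 2, Mcm3 and Mcm10 did not pass in OG2-ROSA either, at 0.68 and 0.54, while Pcna was called there, at 1.66 (reported 0.65, not called), as was Cdt1, at 0.62 (reported 0.43); Cdt1, Gins4 and Pcna were then also called in OG2, at unchanged values of 0.50, -0.41 and 1.37. The test of the difference itself called 0 members, with 0.00767% of all probes called, and 0 of the 33 members were under 0.05 even unadjusted, where 653 of all probes were; the 13 alternatives other than leaving out an array also called 0 member probes. The 95% interval of the difference lay within 1 log2 unit of 0 for 20 of 33 members, with a median width to each side of 0.65. These intervals are not adjusted for the number of probes, while the calls are. Differences larger than 0.65 could therefore also go uncalled, and the lowest member difference, -1.12, was not called. In the fibroblast list, 2 of 13 tested genes were lower and 0 higher in gPS in OG2-ROSA, against 10 lower and 1 higher in OG2. Their median log2 changes were -0.88 and -2.08. The test of the difference itself called 0 of the 13, with a median of 1.25.

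**Figure D4:**
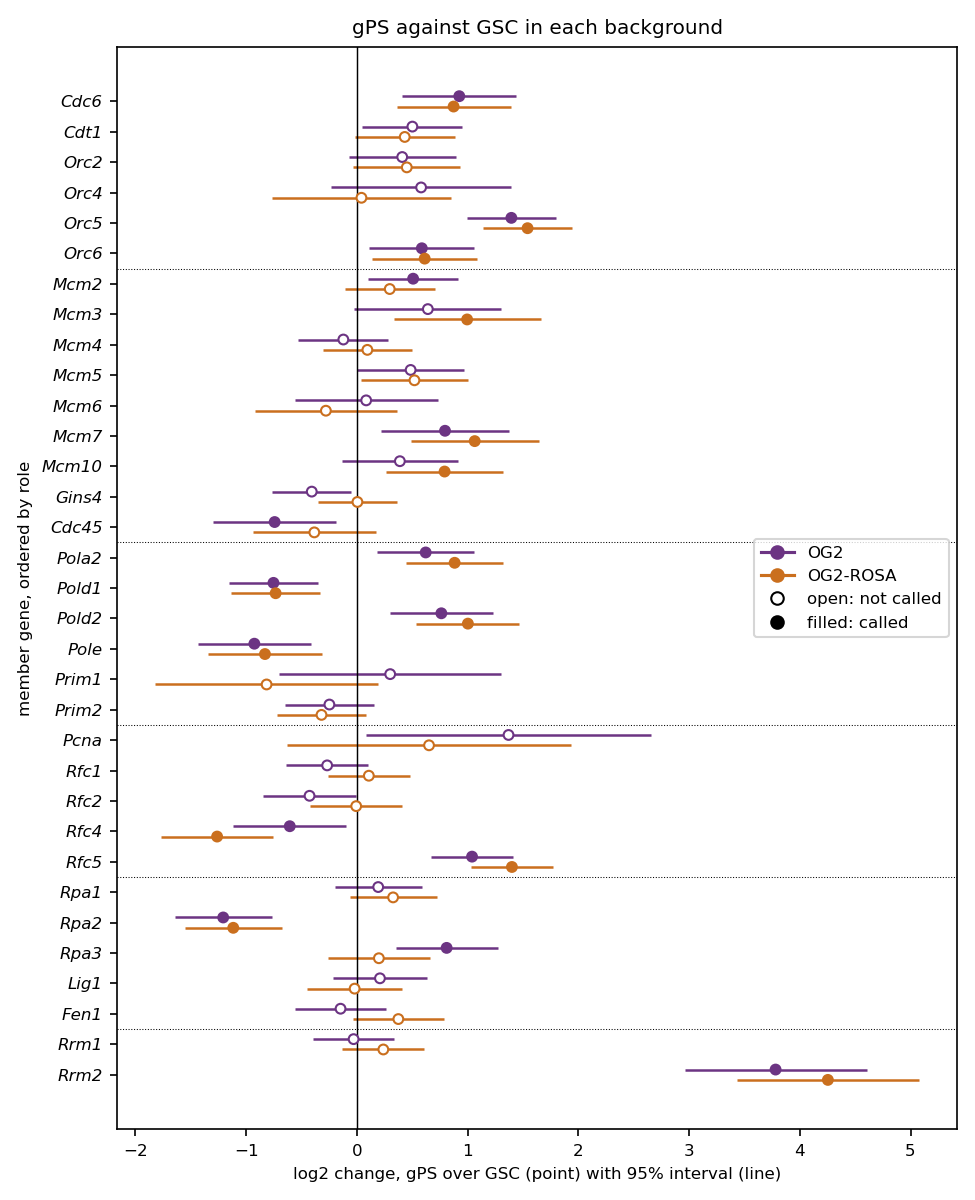
Log2 change of each member in gPS over GSC with its 95% interval (x axis), in OG2-ROSA and in OG2, by role down the y axis; filled points passed the test. The intervals of the backgrounds overlap for the members shown, and Rrm2 is the furthest right in both, at 4.25 and 3.78.

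Set directly against each other, the backgrounds gave 0 called members in gPS (background 0.222%) and 0 in GSC (background 0.00767%). In gPS, 3 members were under 0.05 unadjusted: Prim1 at -1.09, Rpa3 at -0.54 and Rfc2 at 0.42, and in GSC 0 were. Without gPS OG2-ROSA line 2 these were -0.35, -0.49 and 0.40 and none was under 0.05 (unadjusted p 0.197, 0.0586 and 0.0837). The same alternatives also called 0 member probes in both. Intervals lay within 1 log2 unit of 0 for 27 of 33 members in gPS and 30 of 33 in GSC.

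The next comparison asks how close the gPS lines come to embryonic stem cells. No member was called between gPS and ESC, where 0.345% of all probes were. Unadjusted, 2 of 33 were under 0.05, Mcm7 with a log2 difference of 0.77 and Mcm2 with 0.45, both higher in gPS (0.61 and 0.41 without gPS OG2-ROSA line 2), and weighting the arrays by quality called 1 member probe. Mcm7 read 9.72 to 10.97 in gPS and 9.28 and 9.32 in ESC, and Mcm2 read 11.58 to 12.01 in gPS and 11.38 and 11.37 in ESC. Mcm2, Mcm3, Mcm7 and Prim2 lay above both ESC arrays on all 6 gPS arrays, 4 of 33 members, where 6.36% of all probes did, and 0 members lay below, where 6.55% did (12.9% in either direction). Intervals lay within 1 log2 unit of 0 for 28 of the 33, and ran from -1.95 to 1.35 over all of them. They are not adjusted for the number of probes, so differences as large as that of Mcm7, 0.77, could go uncalled.

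GSC set against ESC gave 5 members higher and 10 lower, where 26.4% and 24% of all probes were (50.5% in either direction). Rrm2 was 14.7-fold lower in GSC (log2 -3.88, adjusted p = 3.13e-06), with GSC arrays at 5.59 to 6.81 and ESC arrays at 9.96 and 10.07. Orc5 and Rfc5 were lower, with log2 differences of -1.54 and -1.14, and Rpa2 was higher, at 1.37 (adjusted p 1.85e-05, 1.16e-04 and 1.04e-04). Also lower in GSC were Cdc6, Cdt1, Orc2 and Orc6 (-0.57 to -1.12), Pola2, Pold2 and Pcna (-0.78 to -1.67), and also higher were Pold1, Prim2, Rfc2 and Rfc4 (0.50 to 0.92).

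By role, 5 of 6 origin and licensing genes were lower in GSC than in ESC, while 0 of 9 helicase members were called. Over all probes 24% were lower and 26.4% higher. Without gPS OG2-ROSA line 2, which changes only the shared spread here, Mcm10 was called lower, at -0.55, and Pole called higher, at 0.41. Mcm2, Mcm3 and Mcm7 differed by 0.05, -0.19 and -0.16. The same 3 subunits differed by 0.45, 0.63 and 0.77 between gPS and ESC, none of them called. GSC arrays lay outside the ESC pair above it in 7 members and below it in 14, against 33.1% and 32.4% of all probes (65.5% in either direction). The count of 20 member probes called between GSC and ESC depends on the ESC pair: it was 8 without ESC array 2, 10 without ESC array 1, 8 with the pair averaged into 1 sample, and 10 with the fibroblast covariate. Both comparisons share the ESC arrays. The median absolute log2 difference from ESC over the 33 members was 0.139 for gPS and 0.534 for GSC. It was not computed over all probes, of which 0.345% were called between gPS and ESC and 50.5% between GSC and ESC.

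**Figure D5:**
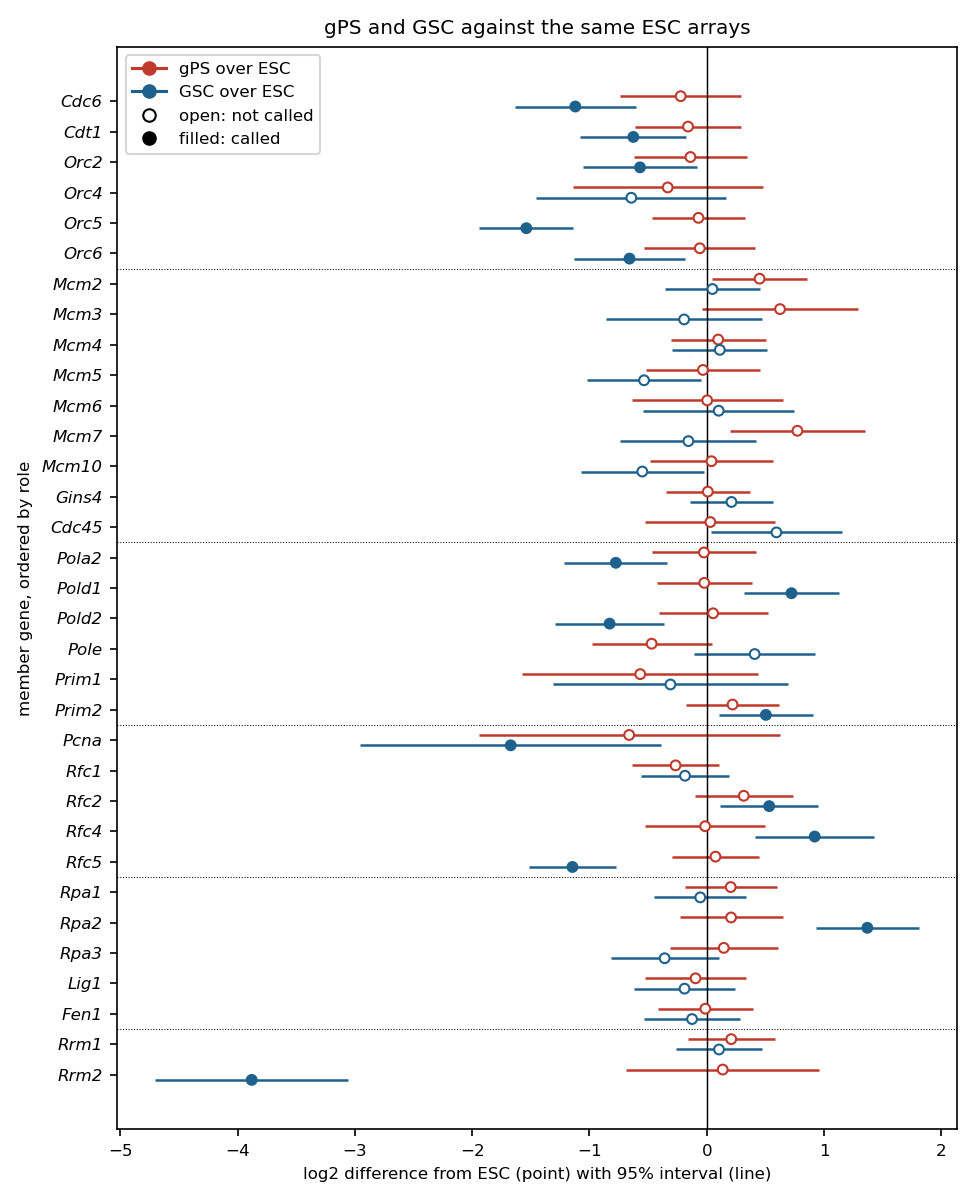
Log2 difference of each member from the same 2 ESC arrays with its 95% interval (x axis), for gPS and for GSC, by role down the y axis; filled points passed the test. All gPS points are open, and the filled GSC points include Rrm2 at -3.88 and Rpa2 at 1.37.

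Promoter motifs were set beside the calls in gPS against GSC as a description. An E2F spelling was present in 5 of 16 raised members, 1 of 4 lowered members with a window and 2 of 8 that did not pass. CCAAT was present in 11, 2 and 6 of them. Orc1, Pola1, Pole2 and Rfc3, which were not tested and are left out of these counts, also hold an E2F spelling. The Rrm2 and Rpa2 windows printed above hold none of the 3 E2F spellings, and the Mcm6 window, whose gene did not pass, holds 3.

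Genes around the machinery were counted in the same comparison, from lists chosen by function. Of 34 further fork and origin genes, 25 were tested, with 7 higher and 7 lower in gPS and a median log2 change of -0.09. Those furthest moved were Atad5 (1.35), which unloads Pcna, Top1 (1.31), which relieves supercoils, Pole4 (1.31), a polymerase epsilon subunit, and Cdc7 (-1.06), the kinase that fires licensed origins. Chromatin assembly behind the fork gave 3 higher and 3 lower of 8 tested, with the histone chaperone Nasp at 0.91, Rbbp7 at 0.81, Chaf1b, a subunit of the assembly factor CAF-1, at 0.51 and the maintenance methyltransferase Dnmt1 at -0.48.

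Nucleotide supply, the pathway of Rrm2, gave 7 higher and 3 lower of 14 tested, with a median of 0.29. The folate enzyme Mthfd1 rose by 3.01, the dUTPase Dut by 2.00 and thymidylate kinase Dtymk by 1.93, and Samhd1, which breaks down deoxynucleotides, changed by -1.79. The E2F and Rb family gave 4 higher and 4 lower of 12 tested, with Mybl2, a factor of late cell cycle genes, at 2.65 and E2f4, known mainly as a repressor, at 2.64, and with the retinoblastoma gene Rb1 at -2.20 and the repressor E2f6 at -1.61. Of 18 tested mitotic genes 7 were higher and 2 lower, led by the kinases Plk1 (1.86) and Cdk1 (1.59), the survivin gene Birc5 (1.52) and the ubiquitin enzyme Ube2c (1.40), with a median of 0.42. All genes named here passed the test, and these shares stand beside 30.4% higher and 33.5% lower over all probes.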

How the data were processed

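The 14 samples were measured on Illumina Mouse-8 v2 arrays, 1 each. The deposited intensity per probe is linear and not background-subtracted, per the file headers and the values, and a detection p-value per probe was deposited with it, per the file headers. BeadStudio 3.2, lumi and RMA are named, without roles, in the submitters' processing notes. The authors' deposited log2 table has equal quantiles on all arrays and served as an alternative. How its background was corrected is not given in the sources.

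The neqc function of limma 3.58.1 (R 4.3.3) normalised the intensities, with background estimated from the detection p-values, an offset of 16, quantile scaling and log2. Tests took probes that at least 2 arrays detected (p below 0.01; 13034 of 25697; 1719 of all probes carry no symbol). A model of the 5 group means was fitted with lmFit and eBayes, and adjusted p-values are Benjamini-Hochberg over all tested probes, called under 0.05. The spread is shared by all groups and counts both ESC arrays as independent. The number of arrays limits the precision. The fit was tested on simulated data.

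The members and lists were chosen with earlier results of these data known. Values by array are given for the members called and apart between all arrays of gPS and GSC, the 4 strongest of each other comparison and 15 members taken for their roles. Of these 15, Gins2 has no probe, and Fen1, Orc1 and Pola1 are given by range. Further lists show up to 4 called genes of largest change. Same-numbered gPS and GSC arrays shared no deviations from their group means, with correlations between -0.16 and 0.0039. Lines of common origin need not share such deviations, so this cannot tell which line gave which. Alternatives were background correction, scaling, filter, array weights, a replicate block, the fibroblast covariate, the ESC pair averaged and arrays left out.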

Additional observations from a re-analysis of the deposited data

Results flagged for a closer look

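For 3 members, gPS OG2-ROSA line 2 lay far from the other 5 gPS arrays, by a gap above Dixon's 95% limit for 6 values. Pcna read 7.10 there, against 9.64 to 10.30 on the others. Prim1 read 4.94 there and was not detected, against 6.96 to 7.64 on the others. Mcm6 read 11.23 there, against 12.22 to 12.78. Over the 33 members, 66 sets of 6 arrays were examined and 3 gave such a gap (4.55%), where chance gives about 1 in 20. That rate does not take into account that all 3 were low values on the same array. The same array had the lowest mean intensity, 308, and its part in these values was not tested.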

How the results depend on the processing

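Over 13 alternatives other than leaving out an array, 117 counts of called member probes were set against their reported values. They include comparisons with 0 reported calls, where a further 0 counts as unchanged. Of the 117 counts, 112 stayed within 1.5 times of the reported value. The exceptions were 6 higher in gPS than in GSC (reported 24), 7 called in OG2 (19) and 10 between GSC and ESC (20), all with the fibroblast covariate, 8 between GSC and ESC with the ESC arrays averaged, and 1 between gPS and ESC with array weights (0); the cause was not tested, beyond the loss of 1 sample on averaging. Leaving out each array gave 20 to 25 probes higher and 7 to 8 lower in gPS than in GSC, 18 to 24 in OG2-ROSA, 13 to 25 in OG2, 8 to 24 between GSC and ESC (8 without ESC array 2, 10 without ESC array 1), and 0 to 0 in the other comparisons. With the line number as a replicate block, which is no known pairing, the counts were 18 higher and 7 lower over both backgrounds, 20 in OG2-ROSA, 15 in OG2, 15 between GSC and ESC and 0 elsewhere; Cdt1, Orc2, Mcm2 and Pcna lost their calls. Median scaling on probes detected on every array put 49.9% of all calls higher. Median scaling over all probes, added after seeing the data, moved the median of all probes to -0.28, put 34.7% of calls higher (reported 47.6%), gave 18 member probes higher and 10 lower, and ended the calls of Orc2, Pcna and Rpa3.

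Signs changed only in members that had not passed. Under median scaling Mcm4 gave 0.51 (adjusted p = 0.00701), Mcm6 0.27, Gins4 0.11 and Rfc2 0.077, and under median scaling over all probes Mcm4 gave 0.23, Lig1 -0.028 and Rrm1 -0.083. With the fibroblast covariate Orc4 gave -0.091, Rfc1 0.14, Lig1 -0.21 and Fen1 -0.024. Mcm6 gave 0.041 with array weights, and Prim1 gave 0.22 without both dim arrays. Leaving out 1 array in turn gave -0.094 to 0.052 for Mcm4, above 0 without gPS OG2 line 1, gPS OG2-ROSA line 3, GSC OG2 line 2 or GSC OG2-ROSA line 2, and -0.27 to 0.11 for Mcm6 and -0.49 to 0.11 for Prim1, above 0 without gPS OG2-ROSA line 2. A chip block was not run, because the columns name no chip. Dim probes, such as those of Orc2, Orc4 and Rrm2 in GSC, are limited by background.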
